A study of Mus musculus with 39 samples.

Results

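The 10 genes described here are markers of the cells that line vessels, measured in bulk RNA of mouse mammary tumours. They were taken by symbol from the table of raw counts, where all 10 were found among 53715 genes. Pecam1, Cdh5, Kdr, Tek, Vwf and Emcn mark blood endothelium, Flt4, Lyve1 and Prox1 mark lymphatic endothelium, and Madcam1, which encodes an adhesion molecule of venules in mucosa and lymphoid tissue, was kept apart from the other 9.

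The 39 tumours came from 28 female mice, all of which carried BlgCre, Brca1fl/fl and one germline null allele of p53, in every group alike. BlgCre is Cre recombinase under the β-lactoglobulin promoter, which is active in mammary epithelium, so the floxed alleles were aimed at epithelium and not at endothelium. The mice differed in Lyn, which encodes a Src family kinase: 13 tumours of 9 mice were Lynfl/fl, 14 tumours of 10 mice were Lynfl/wt and 12 tumours of 9 mice were Lynwt/wt. The labels give no ages. The labels also divided the tumours by expression: 13 were Lyn-high, 13 were Lyn-low and the 13 with neither label are called Lyn-middle here, while 10 formed PCA group 3/4 and 29 formed PCA group 1/2. The Lyn groups were ranked on Lyn in these libraries and the PCA groups were drawn from the expression of all genes, the 10 genes included, so neither grouping was independent of the counts compared below. Of the Lyn-high tumours 6 were PCA 3/4 and 7 were PCA 1/2, of the Lyn-middle tumours 4 and 9 were, and all 13 Lyn-low tumours were PCA 1/2.

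Each library held between 50490044 and 83122719 counts on genes. Of the 28 mice 9 had several tumours sequenced (20 of the 39), and the tests below treat each tumour as a sample unless the mouse is named as a block. Autopsy numbers begin with 20 for 18 tumours and with 21 for 21, and this prefix is not balanced over the groups: Lyn-high tumours had 9 with 20 and 4 with 21, against 4 and 9 of the Lyn-low tumours, and PCA 3/4 tumours had 7 and 3, against 11 and 18 of the PCA 1/2 tumours. All 4 Lyn-high tumours with prefix 21 were PCA 1/2. Epithelial markers (Epcam, Krt8, Krt18, Krt5, Krt14 and Cdh1) summed to between 74036 and 417975 normalised counts per tumour, against 3230 to 26846 for the 9 endothelial genes. In bulk tissue, fewer endothelial cells and less RNA per endothelial cell cannot be told apart.

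Endothelial cells form the inner wall of vessels. PECAM1 and CDH5 (VE-cadherin) sit at their junctions, KDR (VEGFR2) receives VEGFA, TEK (TIE2) receives the angiopoietins, VWF is stored in granules and binds platelets, and EMCN (endomucin) is a sialomucin of capillary and venous surfaces. In lymphatic endothelium PROX1 is the transcription factor that sets and keeps the identity, FLT4 (VEGFR3) receives VEGFC and VEGFD, and LYVE1 binds hyaluronan. FLT4 is also found on some angiogenic blood vessels, and LYVE1 on some tissue macrophages. MADCAM1 is the ligand of the lymphocyte integrin α4β7 (Itga4, Itgb7), and apart from venules it is made by stromal cells of lymphoid tissue, such as follicular dendritic cells.

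The promoter of Madcam1 is shown because this gene gave the largest change of the 10. Madcam1 (ENSMUSG00000020310) lies on chromosome 10, plus strand, at positions 79664559 to 79668537 of GRCm38 (Gencode vM21). The 250 bases before its start, chr10:79664309-79664558 on the plus strand of GRCm38.p6 from RefSeq, read 5′ to 3′ as follows. Capitals mark matches to GGGNNNNNCCC, GGG and CCC with any 5 bases between them, an 11-base frame that some κB sites share and others lack. The shares below are therefore of this frame and not of κB sites in general. The frame was chosen with this promoter in view, and it is its own reverse complement, so that both strands are searched at once.
Madcam1: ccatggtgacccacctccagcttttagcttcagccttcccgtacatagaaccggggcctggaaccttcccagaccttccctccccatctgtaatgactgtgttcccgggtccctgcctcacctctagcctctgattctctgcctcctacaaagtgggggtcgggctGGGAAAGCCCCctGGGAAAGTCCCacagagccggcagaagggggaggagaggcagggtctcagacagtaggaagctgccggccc
The first match begins 84 bases and the second 71 bases before the start, with 2 bases between them. Of the 32851 promoter windows of this length in the table, 12.2% (4019) held at least 1 match and 1.92% (630) held at least 2. Of the 10 genes 6 had a window there; besides Madcam1, 1 of the 2 windows of Prox1 held a match, and those of Emcn, Tek, Kdr and Flt4 held 0. A match describes letters in a window and says nothing on binding in these tumours.

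Counted per kilobase of exon, to allow levels to be compared between genes, the junction genes were the most abundant. Cdh5 had a median of 568 normalised counts per kb over the 39 tumours and Pecam1 had 433. Kdr followed with 157, Emcn with 135 and Vwf with 135. Flt4 had 70.3, Tek 57.5, Lyve1 37.1, Madcam1 19.5 and Prox1 3.37. Kdr, Emcn and Vwf, neighbours in this order, had ranges per kb that overlapped over most of their length (39.3 to 373, 36.3 to 362 and 48.1 to 380).

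Between the lowest and the highest tumour, 5 of the 6 blood endothelial genes varied by between 7.91-fold (Vwf) and 11.2-fold (Pecam1), and Tek by 49.8-fold. Flt4 varied 14.6-fold and Lyve1 1377-fold. Prox1 had no count in 6 tumours and Madcam1 in 2. A count of 0 allows up to 3 counts in a library if counts are independent, and more if each fragment adds a count per read. Prox1 shares 133 exonic bases with the antisense gene Prox1os, which had at most 11 counts in a tumour. The sum of the 9 endothelial genes was highest in Lynfl/wt tumour 7 (26846 normalised counts), Lynwt/wt tumours 1 (25686) and 39 (25645) and Lynfl/wt tumour 45 (23432). It was lowest in Lynfl/wt tumour 48 (3230), Lynwt/wt tumour 42 (3407) and Lynfl/fl tumour 74 (3908). All 7 of these tumours were PCA 1/2. The 10 PCA 3/4 tumours spanned 6759 to 13218, against 3230 to 26846 in the 29 PCA 1/2 tumours. A range tends to widen with the number of tumours, so these spans are not on equal terms.

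Across tumours, 8 of the 9 endothelial genes moved together. Each gene was set against the mean log2 CPM (library-scaled counts, prior count 2) of the other endothelial genes over the 39 tumours, 10 relations in all with permutation tests of 100000 resamples, two-sided. Pecam1 followed the mean most closely (Pearson r = 0.84, Spearman rho = 0.80), and Vwf had the lowest Pearson r of the 8 (r = 0.74, rho = 0.74). Lyve1 had r = 0.74 and rho = 0.67 and Flt4 had r = 0.79 and rho = 0.73. For these 8 genes the permutation p of r was 1e-05, the smallest that 100000 resamples can give, with a Benjamini-Hochberg adjusted p of 1.25e-05. Prox1 stood apart (r = 0.28, adjusted permutation p = 0.089, rho = 0.26, adjusted permutation p = 0.11).

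Without the 2 tumours farthest from the median of the mean, r was between 0.68 (Vwf and Emcn) and 0.79 (Pecam1) for these 8 genes. Within prefix 20 it was between 0.61 and 0.82 and within prefix 21 between 0.70 and 0.86, and with 1 mean per mouse (28 mice) between 0.78 and 0.86. Within the 29 PCA 1/2 tumours it was between 0.79 (Vwf) and 0.90 (Pecam1). Within the 10 PCA 3/4 tumours it was between -0.08 and 0.33 for 7 of the 8 genes and 0.71 for Flt4 (adjusted permutation p = 0.20, and r = 0.36 without the 2 farthest tumours). The genes that vary most move this mean most: Prox1 (SD of log2 CPM 2.65 over 39 tumours) and Lyve1 (2.20), against 0.70 (Kdr) to 1.16 (Tek) for the blood genes. In PCA 3/4 tumours Prox1 ranged over 0 to 1271 normalised counts and Pecam1 over 1626 to 3317. The low r there therefore does not show that the blood genes varied apart, and pairs of genes within PCA 3/4 tumours were not tested.

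**Figure D1:**
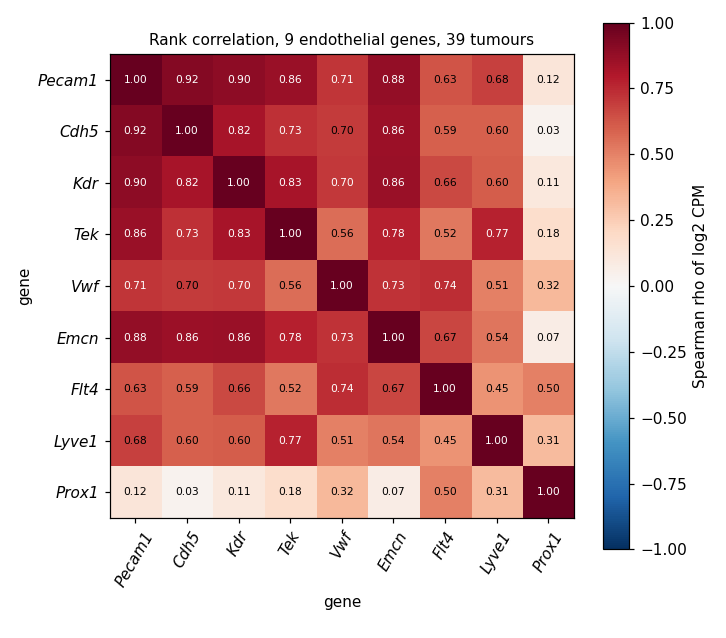
Spearman rho of log2 CPM between each pair of the 9 endothelial genes over 39 tumours, with rows and columns in the same gene order. The 15 pairs of the 6 blood endothelial genes lie between 0.56 and 0.92, while the 18 pairs of a blood and a lymphatic gene lie between 0.03 and 0.77.

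Madcam1 split the tumours by PCA group, so its relation to the endothelial genes is given within each PCA group. Within PCA 3/4 tumours its r with the mean of the 9 endothelial genes was 0.51 (adjusted permutation p = 0.66, rho = 0.70, adjusted permutation p = 0.31, n = 10, the adjusted p being over the 10 genes), and 0.44 without the 2 farthest tumours. Within PCA 1/2 tumours it was 0.57 (adjusted permutation p = 0.0012, rho = 0.51, adjusted permutation p = 0.0060, n = 29), and 0.54 without the 2 farthest tumours, at levels of at most 86.7 normalised counts. As given above, Prox1 and Lyve1 move this mean most, so these values do not measure the blood endothelial genes alone. Lynfl/wt tumour 30 was highest in both Prox1 (1271) and Madcam1 (21823). The pairs among the 6 blood genes had a median rho of 0.82 over 39 tumours and the 3 pairs among Flt4, Lyve1 and Prox1 a median of 0.45. As a description, the 5 genes outside the 10 whose ranks were most like the endothelial mean were Adcy4 (rho = 0.88), She (0.87), Rasip1 (0.84), Eng (0.84) and Sox17 (0.83), of 18986 genes. For Madcam1 the same ranking over 39 tumours, of 18995 genes, gave Camk4, Ccl9, Myh11, Msc and Susd2, an order that carries the difference between the PCA groups. Within the 10 PCA 3/4 tumours the rho of these 5 genes with Madcam1 was between 0.0061 (Msc) and 0.77 (Ccl9), and within the 29 PCA 1/2 tumours between 0.48 (Msc) and 0.74 (Camk4).

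In Lyn-high tumours the 9 endothelial genes lay above their level in Lyn-low tumours, by amounts that for 8 of them did not pass the test. All 9 fold changes were positive, with a median log2 fold change of 0.65 against 0.03 over all 17709 genes tested. Flt4, the VEGFC receptor, rose, and so did Madcam1. Calls needed an adjusted p below 0.05 and a change of 2-fold or more in edgeR's quasi-likelihood test with Benjamini-Hochberg adjustment, by which 5.49% of all genes were called higher in Lyn-high tumours (973 genes) and 0.508% lower (90 genes). At an unadjusted p below 0.05, 5 of the 9 endothelial genes and 13.9% of all genes were higher.

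Flt4 (chromosome 11, 49609263 to 49652739, plus strand, GRCm38) ranged over 305 to 1981 normalised counts in Lyn-high tumours (median 905), against 136 to 868 in Lyn-low tumours (median 334). The groups overlapped, but 7 of the 13 Lyn-high tumours lay above every Lyn-low tumour and 12 above the Lyn-low median. The log2 fold change was 1.27 ± 0.32 (SE), which is 2.41-fold (adjusted p = 0.011, edgeR). Flt4 was highest in Lynwt/wt tumour 39 (1981) and Lynfl/fl tumour 13 (1722), both Lyn-high and PCA 1/2. Within prefix 20 its log2 fold change was 1.37 (adjusted p = 0.17, edgeR) and within prefix 21 it was 1.22 (adjusted p = 0.54, edgeR), so the size was close in both and the call was made in neither. With the prefix as a covariate it was 1.27 (adjusted p = 0.039, edgeR), and with the mouse as a random block 1.20 (adjusted p = 0.021, limma-voom).

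The other lymphatic genes had larger fold changes with larger errors, and neither was called. Lyve1 ranged over 11.5 to 2703 normalised counts in Lyn-high tumours (median 309), against 8.78 to 1305 in Lyn-low tumours (median 52.3). Its log2 fold change was 1.47 ± 0.78 (SE, adjusted p = 0.30, edgeR), and 12 of 13 Lyn-high tumours were above the Lyn-low median. The highest values were in Lynfl/wt tumours 7 (2703) and 6 (1291), Lynwt/wt tumour 39 (1231) and the Lyn-low Lynwt/wt tumour 40 (1305). Prox1 ranged over 0 to 503 in Lyn-high tumours (median 90.1), against 0 to 194 in Lyn-low tumours (median 16.7), with 2 tumours at 0 in each group. Its log2 fold change was 2.01 ± 0.92 (SE, adjusted p = 0.21, edgeR), and 6 Lyn-high tumours lay above every Lyn-low tumour.

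Of the junction genes, Pecam1 ranged over 1801 to 6781 normalised counts in Lyn-high tumours (median 3113), against 1136 to 4322 in Lyn-low tumours (median 2061). Its log2 fold change was 0.65 ± 0.23 (SE, adjusted p = 0.083, edgeR). Cdh5 ranged over 1466 to 7698 in Lyn-high tumours (median 2577), against 842 to 3607 in Lyn-low tumours (median 2157), a log2 fold change of 0.69 ± 0.27 (SE, adjusted p = 0.13, edgeR). The groups overlapped for both, with 12 Lyn-high tumours above the Lyn-low median for Pecam1 and 9 for Cdh5. Vwf, which encodes the platelet-binding protein, ranged over 826 to 6106 in Lyn-high tumours (median 2276), against 897 to 2817 in Lyn-low tumours (median 1634), a log2 fold change of 0.64 ± 0.25 (SE, adjusted p = 0.13, edgeR). The receptor gene Kdr ranged over 615 to 3078 in Lyn-high tumours (median 1476), against 615 to 2013 in Lyn-low tumours (median 975). Tek ranged over 212 to 1107 in Lyn-high tumours (median 286), against 22.2 to 949 in Lyn-low tumours (median 236). Emcn, which encodes the sialomucin, ranged over 441 to 1459 in Lyn-high tumours (median 731), against 220 to 1141 in Lyn-low tumours (median 504). The groups overlapped for all of these, and the log2 fold changes of Kdr (0.44), Tek (0.50) and Emcn (0.40) had adjusted p between 0.27 and 0.58 (edgeR).

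**Figure D2:**
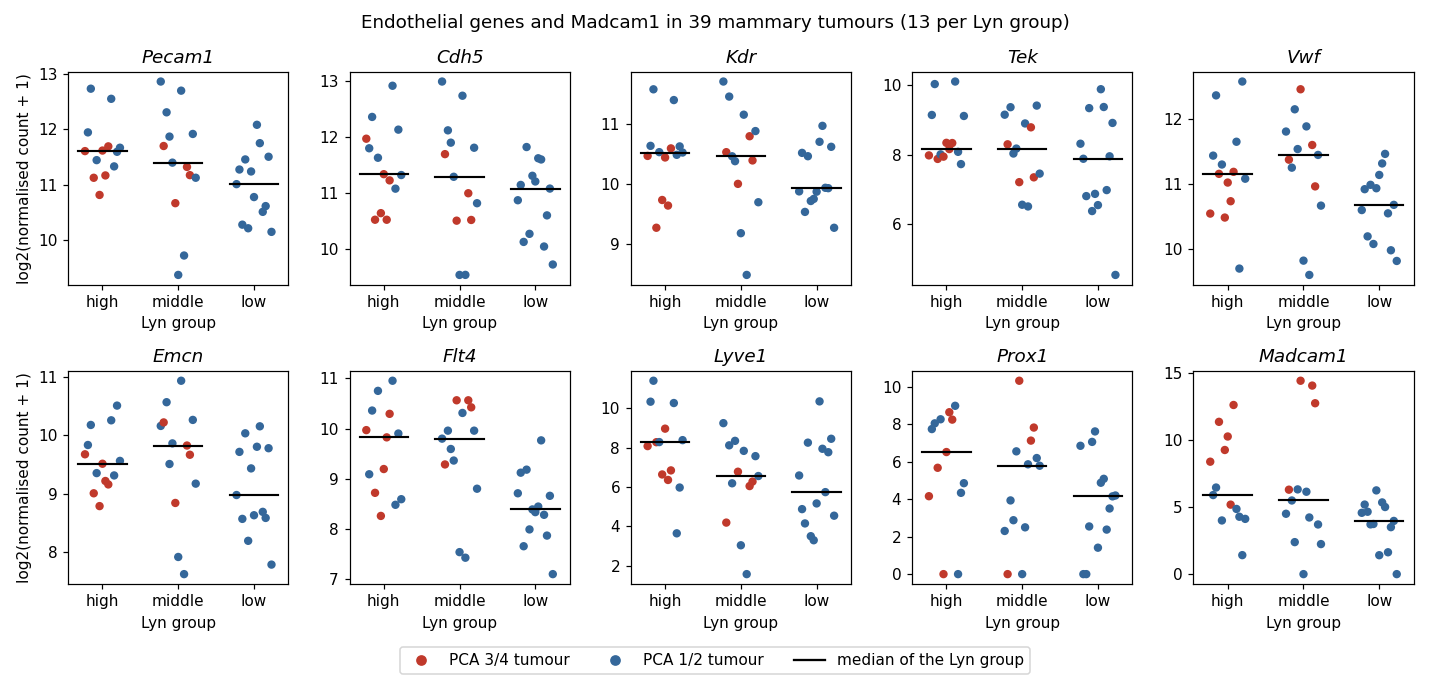
Normalised counts of the 10 genes on a log2 scale (1 added) in each of the 39 tumours, by Lyn group (high, middle, low) with PCA 3/4 tumours in red and PCA 1/2 tumours in blue, and a bar at the median of the Lyn group. The Flt4 medians are 905 in Lyn-high and 334 in Lyn-low tumours, and the highest Madcam1 values all belong to PCA 3/4 tumours.

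Macrophage markers moved with the Lyn groups, where 5.49% of all genes were called higher in Lyn-high tumours and 0.508% lower. The 7 macrophage genes summed to 10671 to 112841 normalised counts in Lyn-high tumours (median 35085), against 5474 to 30635 in Lyn-low tumours (median 11068), and of the 6 tested Csf1r (log2 fold change 1.85), Adgre1 (1.45) and Cd68 (1.31) rose. With the mean z-score of this list as a covariate, the log2 fold change of Flt4 was 0.88 (adjusted p = 0.33, edgeR), that of Lyve1 was -1.33 (adjusted p = 0.37) and that of Tek -0.46 (adjusted p = 0.69). B and T cell markers were also higher in Lyn-high tumours: the B cell genes Ms4a1 (log2 fold change 5.87), Cd79a (5.16) and Cd79b (3.33) and all 5 T cell genes (2.04 to 3.22, Trac 3.02, Cd3e 3.10, Cd3d 2.99, Cd8a 3.22, Cd4 2.04) rose. The 4 adipocyte genes had log2 fold changes of 2.82 to 3.43, none called (adjusted p 0.059 to 0.14, edgeR), with a summed level of 5.00 to 25564 in Lyn-high tumours, against 0 to 1393 in Lyn-low tumours. None of the 4 fibroblast genes, 6 epithelial genes, 2 salivary gland genes or 3 skeletal muscle genes tested was called, and of 3 platelet genes Itga2b was lower (-1.20). The part of these cells in the endothelial differences was not tested beyond the macrophage covariate.

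Of 18 further blood endothelial genes, 1 was called higher in Lyn-high tumours, close to the share of all genes (5.49% higher, 0.508% lower). It was S1pr1 (log2 fold change 1.14 ± 0.25, adjusted p = 0.0036, edgeR), a receptor for sphingosine-1-phosphate that lymphocytes carry as well. The change was positive for 16 of the 18, with a median log2 fold change of 0.63. Of the 18, 8 had an unadjusted p below 0.05, beside 13.9% of all genes higher at that level. Sox18 (0.95, adjusted p = 0.039, edgeR), a transcription factor of vessel and lymphatic development, passed the p threshold but not the 2-fold one. Of 6 further lymphatic genes tested, Reln (-3.53), which encodes an extracellular matrix protein, and Foxc2 (-2.86), a transcription factor of lymphatic valves, fell, and Mmrn1 had 2.72 (adjusted p = 0.19, edgeR). Reln reached 7336 and Foxc2 4066 normalised counts in single Lyn-low tumours, while their medians were 46.9 and 42.5 in Lyn-high tumours, against 226 and 47.3 in Lyn-low tumours. None of the 7 ligand genes was called. The 2 with the smallest p were Pgf (-1.75, adjusted p = 0.083, edgeR), a ligand of FLT1, and Vegfc (1.395, adjusted p = 0.17, edgeR), the ligand of FLT4. Of 8 pericyte genes Cspg4 (2.18) rose and Notch3 (-1.38) fell.

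Among PCA 1/2 tumours alone, 7 Lyn-high and 13 Lyn-low, Flt4 was again called and Madcam1 was not. The 9 endothelial genes were again all positive, with a median log2 fold change of 0.93 against 0.0014 over all genes, and 8 of the 9 had an unadjusted p below 0.05, beside 8.45% of all 18863 genes higher at that level. Flt4 was called (1.44 ± 0.36, SE, adjusted p = 0.041, edgeR), where 1.49% of all genes were called higher. Cdh5 had 1.00 ± 0.28 (adjusted p = 0.077, edgeR), Vwf 0.93 ± 0.29 (adjusted p = 0.12, edgeR), Pecam1 0.88 ± 0.26 (adjusted p = 0.10, edgeR) and Kdr 0.73 ± 0.23 (adjusted p = 0.14, edgeR). Cdh5 ranged over 2154 to 7698 normalised counts in the 7 Lyn-high tumours (median 3551), against 842 to 3607 in the 13 Lyn-low tumours (median 2157). Of the 18 further blood genes 14 had an unadjusted p below 0.05 and a positive change, and Sox18 was called (1.26, adjusted p = 0.045, edgeR). These 20 tumours are part of the 26 above, so the values do not stand as a second test. Madcam1 ranged over 1.67 to 86.7 normalised counts in these Lyn-high tumours (median 18.4), against 0 to 74.6 in Lyn-low tumours (median 14.6). Its log2 fold change was 0.58 ± 0.71 (SE, adjusted p = 0.84, edgeR).

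Set against PCA 1/2 tumours, PCA 3/4 tumours showed no change of endothelial genes that passed the test, and the largest change of the 10 genes in Madcam1. Of all 19453 genes 7.69% were called higher and 6.43% lower, and 0 of the 9 endothelial genes were called by edgeR, with 1 (Prox1) higher at an unadjusted p below 0.05, as 16.7% of all genes were, and 0 called by DESeq2. 3 of the 9 were positive (Vwf, Flt4 and Prox1), and the median log2 fold change was -0.27, against -0.05 over all genes. Prox1 ranged over 0 to 1271 in PCA 3/4 tumours (median 114), against 0 to 503 in PCA 1/2 tumours (median 19.2), with a log2 fold change of 1.70 ± 0.84 (SE, adjusted p = 0.14, edgeR). Lynfl/wt tumour 30, whose section in the study held salivary gland and lymph node, alone had 1271. Without that tumour the value was 0.83 (adjusted p = 0.56, edgeR). Lyve1 had a negative value, with 17.2 to 498 in PCA 3/4 tumours (median 103), against 1.96 to 2703 in PCA 1/2 tumours (median 189), and a log2 fold change of -1.14 ± 0.79 (SE, adjusted p = 0.32, edgeR). With the macrophage z-score as a covariate Lyve1 was called lower in PCA 3/4 tumours, at -1.75 (adjusted p = 0.012, edgeR); the macrophage genes summed to 17978 to 112841 in PCA 3/4 tumours, against 5474 to 46134 in PCA 1/2 tumours. Flt4 had 0.56 ± 0.34 (SE, adjusted p = 0.25, edgeR), with 1.37 within prefix 21 and -0.05 within prefix 20. With the Lyn group in the model, 7 of the 9 endothelial genes had a negative value (median -0.51) and edgeR called 0 of them, where 5.43% of all genes were called higher and 4.74% lower. Of these, Pecam1, Cdh5 and Lyve1 were lower at an unadjusted p below 0.05, Cdh5 at -0.82 (adjusted p = 0.071, edgeR).

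**Figure D3:**
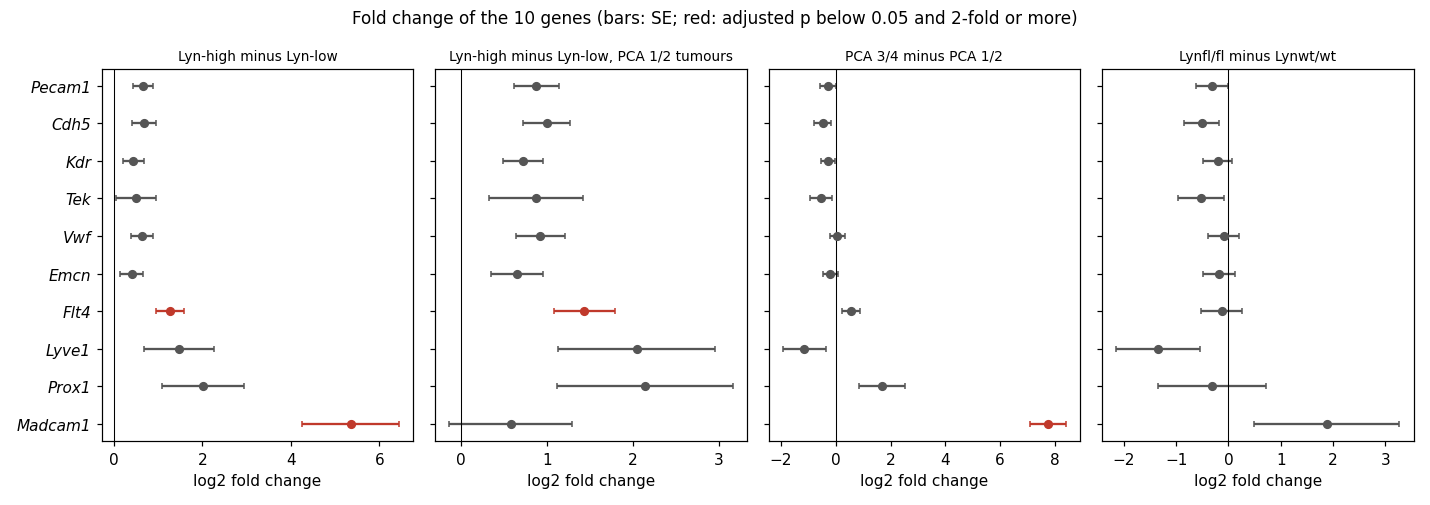
Log2 fold change with its SE of the 10 genes in 4 comparisons, red where the adjusted p was below 0.05 with a change of 2-fold or more. Flt4 and Madcam1 are called in Lyn-high against Lyn-low tumours, Flt4 alone when only PCA 1/2 tumours are compared, Madcam1 alone in PCA 3/4 against PCA 1/2 tumours and none in Lynfl/fl against Lynwt/wt tumours.

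Madcam1 was high in most PCA 3/4 tumours and low in every PCA 1/2 tumour. It had 21823 normalised counts in Lynfl/wt tumour 30, 16985 in Lynfl/wt 49, 6824 in Lynfl/fl 54, 6234 in Lynfl/wt 25, 2611 in Lynfl/wt 8, 1223 in Lynwt/wt 20, 609 in Lynfl/wt 19, 332 in Lynwt/wt 3, 77.5 in Lynfl/wt 9 and 35.3 in Lynwt/wt 21, all PCA 3/4. In the 29 PCA 1/2 tumours it ranged over 0 to 86.7, with a median of 17.7. Thus 8 of 10 PCA 3/4 tumours lay above every PCA 1/2 tumour, and Lynfl/wt tumour 9 and Lynwt/wt tumour 21 lay within the PCA 1/2 range. The log2 fold change was 7.75 ± 0.65 (SE), which is 215-fold (adjusted p = 1.31e-11, edgeR). It was 5.44 within prefix 20 (adjusted p = 0.00082, edgeR) and 9.59 within prefix 21 (adjusted p = 1.42e-08, edgeR), where the difference of the effects, 4.14, had an adjusted p of 0.21 (edgeR). It was 7.52 with the mean of the 9 endothelial genes as a covariate, 7.36 without the 5 tumours that held salivary gland or lymph node in the study's section, and 7.31 with the Lyn group in the model, called in each. Among those 5, Lynfl/wt tumours 30 and 8 and Lynwt/wt tumour 20 held lymph node, and all of these were PCA 3/4.

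Tumours of one mouse could differ widely. The mouse with Lynfl/wt tumours 8, 9 and 19, all PCA 3/4, had 2611, 77.5 and 609 normalised counts of Madcam1. The PCA 3/4 tumours Lynfl/wt 30, Lynfl/wt 49, Lynfl/fl 54 and Lynwt/wt 3 each had a PCA 1/2 tumour from the same mouse, with 12.1 (Lynfl/wt 31), 11.998 (Lynfl/wt 63), 31.0 (Lynfl/fl 55) and, for Lynwt/wt 3, 22.8 and 35.4 (Lynwt/wt 2 and 4). In all 4 mice the PCA 3/4 tumour was the higher one. This follows from the values above, as these 4 tumours lay above every PCA 1/2 tumour, so it adds no separate evidence.

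Madcam1 was also higher in Lyn-high than in Lyn-low tumours. It ranged over 1.67 to 6234 normalised counts in Lyn-high tumours (median 58.4), against 0 to 74.6 in Lyn-low tumours (median 14.6), and 6 of 13 Lyn-high tumours lay above every Lyn-low tumour, of which 5 were PCA 3/4. The log2 fold change was 5.35 ± 1.09 (SE), which is 40.8-fold (adjusted p = 0.0019, edgeR). It was 5.73 within prefix 20 (adjusted p = 0.11, edgeR) and -0.34 within prefix 21 (adjusted p = 0.97, edgeR), where no Lyn-high tumour was PCA 3/4. The difference of these effects was -6.06 (adjusted p = 0.51, edgeR). The call was also lost with the prefix as a covariate (2.70, adjusted p = 0.49, edgeR), with the mouse as a random block (3.04, adjusted p = 0.14, limma-voom) and with the macrophage z-score as a covariate (3.48, adjusted p = 0.46, edgeR). The 3 highest values of all 39 tumours were in Lyn-middle tumours, which are outside this comparison.

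High endothelial venules are the vessels through which lymphocytes enter lymph nodes, and their genes did not share one pattern. Chst4, a sulphotransferase of these venules, had at most 28.6 normalised counts in PCA 3/4 tumours and at most 1.75 in PCA 1/2 tumours, with 7 of 10 and 26 of 29 tumours at 0. Glycam1, which encodes a secreted mucin that mammary epithelium makes as well, rose at a low level, with a log2 fold change of 2.12 (adjusted p = 0.047, edgeR). It ranged over 0 to 67.0 normalised counts in PCA 3/4 tumours (median 15.3), against 0 to 27.9 in PCA 1/2 tumours (median 0). The 4 PCA 3/4 tumours with the most Madcam1 had 26.6 (Lynfl/wt 30), 67.0 (Lynfl/wt 49), 38.2 (Lynfl/fl 54) and 27.9 (Lynfl/wt 25). Nkx2-3, a homeobox gene needed for Madcam1 in spleen and gut, was at 0 in 7 of the 10 PCA 3/4 tumours but had 417 in Lynfl/wt tumour 30 and 56.8 in Lynfl/wt tumour 49, the 2 tumours with the most Madcam1. Nkx2-3 had at most 4.65 in PCA 1/2 tumours. The study's section of Lynfl/wt tumour 30, which also had the most Chst4, held salivary gland and lymph node. For Lynfl/wt tumour 49 neither was noted. The part of such tissue in these counts was not tested.

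Of all genes 7.69% were called higher and 6.43% lower in PCA 3/4 tumours. Of 9 venule and adhesion genes tested, 6 rose and 1 fell in these tumours. Besides Glycam1, these were Icam1 (3.57 ± 0.33, SE), Vcam1 (2.64 ± 0.28), Gcnt1 (3.16), Fut7 (2.47) and Ackr1 (3.13), while Chst2 fell (-2.19). Icam1 and Vcam1 encode adhesion molecules that many cell types make, and Gcnt1 and Fut7 encode enzymes that build selectin ligands, also in leukocytes. Icam1 ranged over 7148 to 46750 normalised counts in PCA 3/4 tumours, against 378 to 8481 in PCA 1/2 tumours, and Vcam1 over 6092 to 27045 in PCA 3/4 tumours, against 668 to 5314 in PCA 1/2 tumours. Vcam1 thus did not overlap between the groups. These groups were drawn from the expression of all genes, and the share of all genes without overlap was not counted. The endothelial selectins Sele (-0.89) and Selp (-0.21) were not called. In Lyn-high against Lyn-low tumours 4 of 8 rose (Icam1 2.55, Vcam1 2.31, Fut7 2.07, Gcnt1 1.94), beside 5.49% of all genes. Among PCA 1/2 tumours alone 0 of 8 were called by edgeR, with 0 at an unadjusted p below 0.05, beside 1.49% and 8.45% of all genes higher.

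Cr2, which encodes complement receptor 2 of B cells and follicular dendritic cells, was high in the same PCA group as Madcam1. It ranged over 48.2 to 33426 normalised counts in PCA 3/4 tumours (median 6460), against 0 to 119 in PCA 1/2 tumours (median 1.67), and 9 of 10 PCA 3/4 tumours lay above every PCA 1/2 tumour. Its log2 fold change was 9.84 ± 0.80 (SE, adjusted p = 6.19e-12, edgeR), while the B cell genes Ms4a1, Cd79a, Cd79b and Pax5 had -0.38 to 0.56 and were not called. Lynfl/wt tumour 30, whose section held lymph node, was highest in Madcam1 and in Cr2 (33426), and Lynfl/wt tumour 9 was low in both (77.5 and 48.2). Lynwt/wt tumour 21, with 35.3 of Madcam1, had 2733 of Cr2. As a description, its rank correlation with Madcam1 was 0.76 within the 10 PCA 3/4 tumours and 0.39 within the 29 PCA 1/2 tumours, and it was set beside Madcam1 after its values were seen.

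**Figure D4:**
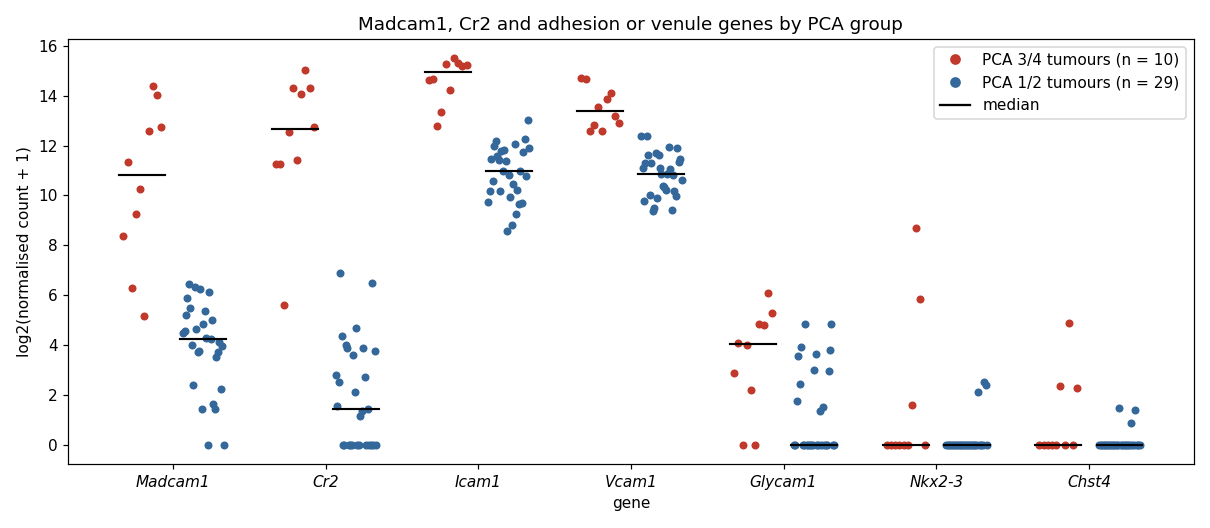
Normalised counts on a log2 scale (1 added) of Madcam1, Cr2 and 5 adhesion or venule genes, with the 10 PCA 3/4 tumours at the left and the 29 PCA 1/2 tumours at the right of each gene and a bar at the median. Madcam1 and Cr2 are high in most PCA 3/4 tumours, while Chst4 and Nkx2-3 are at 0 in 7 of the 10.

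Of 7 genes for partners and inducers of MADCAM1, 4 were called higher in PCA 3/4 tumours: Ltb (2.55) and Tnf (1.12), which encode cytokines known to induce it, Itgb7 (1.81), the β7 integrin chain, and Tnfrsf11a (1.35), the RANK receptor. Itga4 (0.99, adjusted p = 0.019, edgeR) missed the 2-fold threshold. In Lyn-high tumours 3 of the 6 tested rose (Ltb 2.67, Itgb7 2.52, Itga4 1.95). Of all genes 7.69% were called higher in PCA 3/4 tumours and 5.49% in Lyn-high tumours.

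For the lists below, 7.69% of all genes were called higher and 6.43% lower in PCA 3/4 tumours. Of 18 further blood endothelial genes, Cldn5 (-1.29, adjusted p = 0.037, edgeR), a tight junction gene, and Erg (-1.07, adjusted p = 0.029, edgeR), an ETS transcription factor, fell, and S1pr1 passed the p threshold alone (0.74). The median log2 fold change of these 18 genes in PCA 3/4 against PCA 1/2 tumours was -0.32. Of 8 further lymphatic genes Reln (-4.10) and Foxc2 (-2.81) fell. The single Lyn-low tumours with high Reln or high Foxc2 given above were PCA 1/2 and so entered this comparison too. Of 7 ligand genes Pgf (-3.52) and Angpt1 (-2.77, the agonist of TEK) fell, with Pgf at 60.1 to 1610 normalised counts in PCA 3/4 tumours, against 188 to 16423 in PCA 1/2 tumours. Of 8 pericyte genes Rgs5 (1.70) and Cspg4 (1.94) rose and Mcam (-1.05), Notch3 (-1.95), Kcnj8 (-2.41) and Abcc9 (-1.62) fell. Of the other cells' markers, Csf1r (1.27) and Cd68 (1.09) of 7 macrophage genes and Cd3e (1.59) and Trac (1.73) of 5 T cell genes rose. Pdgfra (-1.30) of 4 fibroblast genes, Itga2b (-1.51) of 3 platelet genes and Bhlha15 (-2.91) and Dcpp1 (-7.08) of 3 salivary gland genes fell. None of 6 epithelial, 4 adipocyte or 3 skeletal muscle genes was called.

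Lyn genotype gave no called change in any of the 10 genes. Lyn itself had a log2 fold change of -0.76 ± 0.29 in Lynfl/fl against Lynwt/wt tumours (SE, adjusted p = 0.29, edgeR) and -0.18 ± 0.28 in Lynfl/wt against Lynwt/wt tumours (SE, adjusted p = 0.87, edgeR). The floxed stretch is a single exon, while the counts are of the whole gene in all cells of the tumour, so they do not measure the deletion itself. Of 18998 genes 0.0316% were called between Lynfl/fl and Lynwt/wt tumours in either direction (6 genes), and 0 of the 10 members by edgeR, with 0 at an unadjusted p below 0.05, where 4.06% of all genes were higher and 7.45% lower at that level. DESeq2 also called 0 of the 9 endothelial genes, of 120 genes it called in all. The 9 endothelial log2 fold changes were all negative, from -0.09 (Vwf) to -1.34 (Lyve1), with a median of -0.31 against -0.05 over all genes. Pecam1 ranged over 1136 to 5050 normalised counts in Lynfl/fl tumours (median 2415), against 664 to 7414 in Lynwt/wt tumours (median 2829), a log2 fold change of -0.32 ± 0.30 (SE, adjusted p = 0.74, edgeR). Lyve1 ranged over 8.78 to 349 in Lynfl/fl tumours (median 76.4), against 7.19 to 1305 in Lynwt/wt tumours (median 156), -1.34 ± 0.80 (SE, adjusted p = 0.54, edgeR). The groups overlapped for every one of the 10 genes. Between Lynfl/wt and Lynwt/wt tumours the 9 endothelial genes had log2 fold changes from -0.25 (Cdh5) to 0.84 (Prox1), 5 of them positive, with adjusted p between 0.75 and 0.99 (edgeR). No gene of the context lists was called by edgeR in either genotype comparison.

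The PCA 3/4 tumours were unevenly spread over the genotypes: 1 of 13 Lynfl/fl, 6 of 14 Lynfl/wt and 3 of 12 Lynwt/wt tumours. Madcam1 ranged over 0 to 6824 normalised counts in Lynfl/fl tumours (median 14.6) and 11.998 to 21823 in Lynfl/wt tumours (median 78.0), against 0 to 1223 in Lynwt/wt tumours (median 25.4). The log2 fold change was 1.88 ± 1.39 for Lynfl/fl (SE, adjusted p = 0.65, edgeR) and 4.56 ± 1.56 for Lynfl/wt against Lynwt/wt (SE, adjusted p = 0.26, edgeR), where 0.0158% of all genes were called in either direction. Among Lynfl/fl tumours the value of 6824 was that of tumour 54 alone, with prefix 21 and PCA 3/4, and the next highest was 74.6 in tumour 37. The direction for Lynfl/fl was not stable: it was -2.84 by DESeq2 and -0.74 with the mouse as a random block, 5.57 within prefix 21 and -3.88 within prefix 20. No adjusted p of these 4 values was below 0.05.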

How the data were processed

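RNA from 39 tumours was sequenced by the authors as stranded poly(A) libraries in paired reads of 100 bases, aligned with STAR 2.5.1b to GRCm38 and counted per Gencode vM17 gene with featureCounts 1.5.1. The deposited values used here are these raw counts, not normalised. Among counts from 1 to 10, 79.77% were even, as when each fragment adds a count per read, so counting errors are larger than the counts imply. Whether counting used strand is not given in the sources used here. The deposited tables of normalised counts, fold changes and p-values were not used.

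Differential expression was tested with edgeR 4.0.16 (quasi-likelihood test, TMM normalisation, filterByExpr, robust dispersion) over all genes that passed the filter, with calls at an adjusted p below 0.05 and a 2-fold change in either direction, as in the study's methods. The SE of a log2 fold change is its size divided by the square root of the test's F. All 10 genes passed the filter in every comparison. Genotype and PCA comparisons were fitted on 39 tumours and the Lyn comparison on the 26 labelled ones. The study used DESeq2; here version 1.42.0 was an alternative, with limma 3.58.1 for the mouse as a random block. Normalised counts are counts divided by the TMM-scaled library size and multiplied by the mean library size. Coordinates and exon lengths are from Gencode vM21, promoters from RefSeq. Permutation tests used numpy 2.4.6 and scipy 1.17.1 under Python 3.11.15, and the edgeR code was tested on simulated counts.

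The 10 genes and all context lists (further blood and lymphatic endothelium, ligands, venule and adhesion genes, MADCAM1 partners and inducers, pericyte, macrophage, B cell, T cell, platelet, fibroblast, adipocyte, epithelium, salivary gland, skeletal muscle) were chosen with earlier results of these data known. Named were all 10 genes and, of each list, genes called in a main comparison or else the 2 of smallest p in the Lyn comparison; Chst4, Nkx2-3, Sele, Selp and genes given beside a call in another comparison were named after their values were seen. Some genes of the B cell list and of the list of MADCAM1 partners and inducers are not reported here, and the counts given for those lists leave them out. The within-prefix fits were chosen after seeing the data. Alternatives were another normalisation, no filter, DESeq2, the prefix as a covariate, the mouse as a block, counts summed per mouse, tumours left out and cell-type covariates. Tumours of one mouse are not independent, so p-values over tumours may be too small.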

Additional observations from a re-analysis of the deposited data

Results flagged for a closer look

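Among the 4 Lyn-middle PCA 3/4 tumours, Flt4 was lowest in Lynfl/wt tumour 9 (622 normalised counts, the others 1372 to 1512), and its gap to the nearest of the others was 0.89 of the group's range on the log2 scale, above Dixon's critical value for 4 samples. This was 1 of 50 groups of 4 to 10 tumours tested in this way, where chance alone flags about 1 in 20. Lynfl/wt tumour 9 also had the second lowest Madcam1 of its PCA group (77.5 normalised counts).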

How the results depend on the processing

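The number of all genes called between Lynfl/fl and Lynwt/wt tumours was 6, against 120 with DESeq2, 1 without the filter on low counts, and 0 with the autopsy number prefix as a covariate, with the mouse as a random block, with counts summed per mouse, within prefix 20 and within prefix 21. Between Lyn-high and Lyn-low tumours it was 1063, against 1780 with DESeq2, 1711 without the filter, 531 with the prefix as a covariate, 290 within prefix 20 and 0 within prefix 21, and 822 to 1207 when each tumour of the Lyn-high group was left out in turn. Between PCA 3/4 and PCA 1/2 tumours it was 2746, against 4397 with the adjusted p alone, 4766 without the filter, 1002 within prefix 20, and 2357 to 2964 when each PCA 3/4 tumour was left out. The fits within a prefix, chosen after seeing the data, have fewer tumours.

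In Lyn-high against Lyn-low tumours, 1 of the 9 endothelial genes was called higher, against 0 within prefix 20, within prefix 21 and with the macrophage covariate. The log2 fold change of Flt4 was then 1.37, 1.22 and 0.88, and 1.09 to 1.32 with a tumour left out, called each time. With the macrophage covariate Tek was at -0.46 and Lyve1 at -1.33. Madcam1, at 5.35, was not called with the prefix as a covariate (2.70), with the mouse as a block (3.04), with the macrophage covariate (3.48), within prefix 20 (5.73) or within prefix 21 (-0.34), and was at 4.28 to 5.46, called each time, with a tumour left out.

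In PCA 3/4 against PCA 1/2 tumours, Madcam1 was called under every alternative run (5.44 to 9.59). Of the endothelial genes, 1 was called lower with the macrophage covariate (Lyve1, -1.75). Lyve1 was at 0.029 with the mouse as a block, Kdr at 0.052 within prefix 21 and Flt4 at -0.051 within prefix 20. Vwf was at -0.20 without the 5 tumours with salivary gland or lymph node, -0.43 within prefix 20, -0.13 with the macrophage covariate and -0.15 to 0.13 with a tumour left out.

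In Lynfl/fl against Lynwt/wt tumours no gene of the 10 was called under any alternative, but signs changed: within prefix 20 Kdr was at 0.069, Vwf at 0.36, Emcn at 0.048, Flt4 at 0.37, Prox1 at 0.14 and Madcam1 at -3.88, with the mouse as a block Vwf at 0.022, Prox1 at 0.89 and Madcam1 at -0.74, and with DESeq2 Madcam1 at -2.84. The cause of these changes was not tested. Over all alternatives, 474 values of a log2 fold change kept their direction and their side of the threshold, 7 lost the call, 1 gained it and 20 changed sign. These values include, for each gene, 13 fits of the Lyn and 10 of the PCA comparison with a single tumour left out, close to the main fit. In the main fits only Flt4 and Madcam1 by Lyn group and Madcam1 by PCA group were called, so most kept values are of uncalled genes. Tumour numbers are not shared between groups, so pairing was by mouse: with the mouse as a random block, Madcam1 in PCA 3/4 against PCA 1/2 tumours was at 6.64, and of the 10 genes the block changed the call of Madcam1 in the Lyn comparison alone. Depth limits mainly Prox1 and Madcam1, which had 0 counts in 6 and 2 tumours.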
